A study of Mus musculus with 4 samples.

Results

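miR-221 and miR-222 are a pair of microRNAs (miRNAs) known for promoting smooth muscle proliferation. Their entries were taken by name from the deposited small RNA profiles of mouse aorta, as the 3p and 5p arm of each hairpin. This gave 4 of the 1152 listed entries, namely miR-221-3p, miR-222-3p, miR-221-5p and miR-222-5p. All 4 were above the low-value filter, miR-222-5p only through its CKD values, and 1079 of the listed entries carried a miRNA name. The libraries were 2 labelled CKD (chronic kidney disease) and 2 labelled Sham, all from wild type C57BL/6 mice of 12 weeks, and 4 samples were pooled for each library. The protocol in the labels describes removal of both poles of the left kidney and, 1 week later, of the right kidney, followed by 4 weeks on 2% phosphate feed with 0.45% NaCl in the water. It is worded the same for CKD and Sham, so the labels do not say what the Sham mice received. The study asked which aortic miRNAs differ in vascular calcification brought on by CKD. With pooled tissue, fewer cells of a type and less RNA per cell cannot be told apart, and p-values reflect no more than the spread among the pools.

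miRNAs silence messenger RNAs through their seed, the bases 2 to 8 that pair with the target, so miRNAs with the same seed share many targets. miR-221 and miR-222 come from neighbouring hairpins on the X chromosome and are made from a common primary transcript. In smooth muscle they are known to repress Cdkn1b and Cdkn1c, inhibitors of the cell cycle, and in endothelium they are known to repress Kit, the receptor of stem cell factor. Raised together in cultured mouse smooth muscle cells, they have been described as promoting calcification. None of these target messenger RNAs was measured here.

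The mature sequences show what ties the pair together, and RefSeq (GRCm38.p6) held 3 of the 4 listed arms. Capitals mark the seed, and all are written 5′ to 3′.
miR-221-3p: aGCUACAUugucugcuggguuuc
miR-222-3p: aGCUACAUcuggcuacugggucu
miR-221-5p: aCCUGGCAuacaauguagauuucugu
The 3p arms were identical over their first 8 bases and at 11 of 23 positions without gaps. Among 1679 mature mouse miRNAs in that table, 3 carried this seed, and the remaining one, miR-1928, was not among the listed entries. The 5p arm has another seed.

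The hairpins show the arms in place, with the mature arms that RefSeq gives in capitals.
Mir221: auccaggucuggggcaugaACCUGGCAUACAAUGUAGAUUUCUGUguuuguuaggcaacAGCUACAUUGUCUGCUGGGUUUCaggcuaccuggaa
Mir222: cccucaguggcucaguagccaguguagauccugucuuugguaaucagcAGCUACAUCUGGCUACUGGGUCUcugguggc
Mir221 lies at chrX:19146294-19146388 and Mir222 at chrX:19146893-19146971 in GRCm38, both on the minus strand, with 504 bases between them. In the GENCODE M21 annotation neither hairpin lies within another gene. The nearest gene is Gm14636, a processed transcript on the same strand that lies 10009 bases away.

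To show how the seed meets its known targets, the longest annotated 3′ untranslated region of each was searched on the transcript strand for ATGTAGC, the reverse complement of the seed. Capitals mark the match within 30 bases of GENCODE M21 sequence.
Cdkn1b: ctctaaaagcattggATGTAGCattgcgca
Cdkn1c: tgggacctttcgttcATGTAGCaggaaccg
Kit, first match: aatgatgggagatatATGTAGCaagactag
Kit, second match: tttgtaaatattgaaATGTAGCaataatgt
These lie in GRCm38 at chr6:134924416-134924445 on the plus strand, chr7:143458918-143458947 on the minus strand, and chr5:75654977-75655006 and chr5:75656508-75656537 on the plus strand. Over a stretch of the same length, the letters also occurred in 24.5% of 2108 genes with untranslated regions at least as long as that of Cdkn1b. The shares were 4.49% of 12598 genes for Cdkn1c and 15.8% of 4792 genes for Kit. Each share counts genes with at least 1 match, whereas Kit had 2. A match of letters is a description and not a measured site.

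All 4 arms were higher in CKD aorta on the deposited scale, in counts per 1000000 reads assigned to listed entries (CPM), but so were most other miRNAs. miR-221-3p, the most abundant of the 4, had 1358 and 1383 CPM in the CKD libraries, against 223 and 325 CPM in the Sham libraries. miR-222-3p had 312 and 298 CPM in CKD, against 66.5 and 105 CPM in Sham. Both CKD libraries lay far above both Sham libraries for each 3p arm, and the CKD pair lay closer together than the Sham pair. miR-221-5p, the minor arm of its hairpin, had 26.9 and 31.8 CPM in CKD, against 5.02 and 10.96 CPM in Sham. miR-222-5p had 4.11 and 4.86 CPM in CKD, against 0.40 and 1.18 CPM in Sham, which is 72 and 81 reads in CKD and 7 and 20 reads in Sham. The CKD libraries thus lay above the Sham libraries for all 4 arms, beside 91.2% of tested entries. However, the Sham values of miR-222-5p rest on few reads, and it passed the low-value filter only through CKD.

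In every library the order was miR-221-3p, miR-222-3p, miR-221-5p and miR-222-5p, and the 3p arms together were a small part of the pool. They held 0.167% and 0.168% of reads in CKD, against 0.0289% and 0.0430% in Sham. The Wilson 95% interval was 0.165% to 0.169% in the first CKD library and 0.0282% to 0.0298% in the first Sham library. No molecular identifiers are known for these reads, and such intervals cover counting error only. Among the 1079 named entries, miR-221-3p ranked 49 and 52 by CPM in CKD, and 55 and 56 in Sham. miR-222-3p ranked 81 and 82 in CKD, and 85 and 82 in Sham. The places of both in the order of levels therefore moved by few ranks while their CPM moved several-fold.

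In mean level over the 4 libraries, the entry above miR-221-3p was miR-486a-5p, a red cell miRNA, with 445 and 3266 CPM in CKD, against 76.9 and 212 CPM in Sham. miR-486b-5p is listed with identical values and so shares that place. The entry below miR-221-3p was miR-133a-3p, a muscle miRNA, with 1189 and 951 CPM in CKD, against 500 and 609 CPM in Sham. miR-222-3p stood between miR-193b-3p, with 339 and 247 CPM in CKD against 117 and 153 CPM in Sham, and miR-194-5p, with 302 and 260 CPM in CKD against 65.8 and 94.9 CPM in Sham. The ranges of miR-222-3p and miR-194-5p overlapped in both groups, but within each library miR-222-3p had the higher CPM. miR-222-3p overlapped miR-193b-3p in CKD but lay below it in both Sham libraries. miR-221-3p overlapped miR-486a-5p in CKD and lay above it in Sham, while it lay above miR-133a-3p in both CKD libraries and below it in both Sham libraries.

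**Figure D1:**
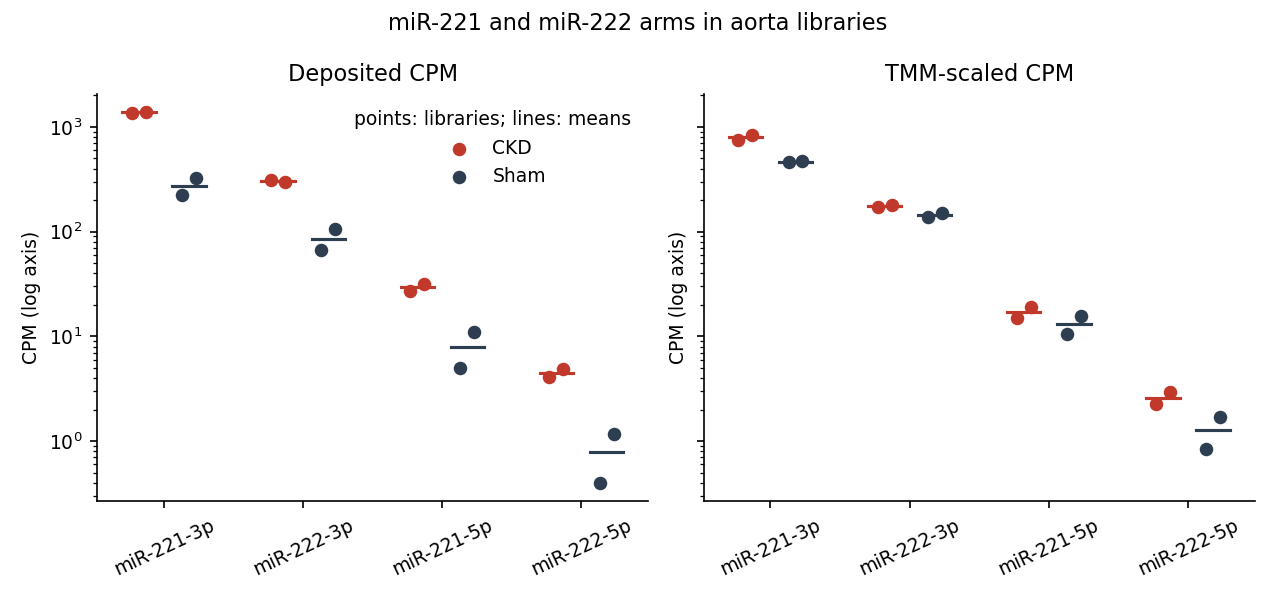
CPM on a log axis of the 4 arms, as deposited (left) and after TMM scaling (right), with a point per library and a line at each group's mean. The CKD points of miR-221-3p, at 1358 and 1383 deposited CPM, lie above the Sham points, at 223 and 325, and remain apart after scaling at 751 and 833 against 466 and 467.

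The deposited scale fixes the sum of each library, and the smooth muscle miRNA miR-143-3p, the most abundant entry, had 411359 and 407824 CPM in CKD, against 798183 and 725182 CPM in Sham. The recovered totals were 17532748 and 16658810 reads in CKD, and 17520690 and 16878392 reads in Sham. The endothelial miR-126a-3p, with 7510 and 7457 CPM in CKD and 2208 and 2626 CPM in Sham, was present in all 4. Over the 479 entries tested, the median log2 difference was 1.34. TMM, the trimmed mean of M values, divides each library by a factor that brings most entries level, and left a median of -0.00. This scaling takes the shared shift out, but it presumes that most miRNAs did not change, and neither scale shows absolute amounts.

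By limma on log2(CPM + 1), all 4 arms passed a Benjamini-Hochberg adjusted p of 0.05 in the higher direction on the deposited scale, where 82.9% of tested entries did. With a Sham mean of 0.79 CPM, miR-222-5p met the filter of a mean of at least 1 CPM only through its CKD values. Its call is therefore given as description only. Differences of log2(CPM + 1) understate the change of low entries. The log2 difference of miR-221-3p was 2.34 (SE 0.40, limma adjusted p = 0.00108), a 5.08-fold difference, on means of 1371 ± 17.9 CPM in CKD and 274 ± 72.1 CPM in Sham (SD, n = 2 each). That of miR-222-3p was 1.86 (SE 0.42, limma adjusted p = 0.00262), 3.62-fold, on means of 305 ± 9.85 CPM in CKD and 85.8 ± 27.3 CPM in Sham (SD, n = 2 each). Only 3.34% of tested entries had a deposited difference above that of miR-221-3p, against 15.7% above that of miR-222-3p. The 5p arms lay at 1.83 for miR-221-5p and 1.65 for miR-222-5p (limma adjusted p = 0.00181 and 0.00168). The value of miR-222-5p depended on the pseudocount, at 2.51 with 0.1 CPM added and 0.43 with 10 CPM added, and that of miR-221-5p was 1.96 and 1.15 with the same, so the 5p arms have no fixed order. The call of miR-222-3p was lost without CKD 1 or CKD 2 (limma adjusted p = 0.086 and 0.060), and that of miR-221-5p without CKD 1 (limma adjusted p = 0.056).

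Relative to the shared shift, miR-221-3p rose and its partner did not pass. After TMM scaling miR-221-3p had 751 and 833 CPM in CKD, against 466 and 467 CPM in Sham, so the groups stayed apart and the Sham libraries nearly coincided. Its log2 difference was 0.76 (SE 0.12, limma adjusted p = 0.0387), or 1.69-fold. miR-222-3p had 173 and 180 scaled CPM in CKD, against 139 and 151 in Sham, also apart but by less. Its log2 difference was 0.28 (SE 0.12, limma adjusted p = 0.25), or 1.21-fold. miR-221-5p lay at 0.37 (SE 0.25, limma adjusted p = 0.39), with 14.9 and 19.1 scaled CPM in CKD overlapping 10.5 and 15.8 in Sham. miR-222-5p lay at 0.69 (SE 0.27, limma adjusted p = 0.22), with 2.27 and 2.93 scaled CPM in CKD, against 0.84 and 1.70 in Sham. Neither 5p difference was steady: that of miR-221-5p was 0.07 without Sham 1, 0.65 without Sham 2 and 0.20 without CKD 2. That of miR-222-5p was 0.43 without Sham 1 and 1.02 without Sham 2, and 1.05 and 0.16 with 0.1 and 10 CPM added.

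Thus 1 of the 4 arms was called higher on the TMM scale, where 1.88% of all tested entries were and 7.72% were called in either direction. The scaled CKD and Sham libraries did not overlap for 3 of the 4, beside 28.0% of tested entries with both CKD libraries above both Sham libraries. Of these 3, miR-222-5p had passed the low-value filter only through CKD. With edgeR's quasi-likelihood test, run on reads recovered from the CPM, the call held for miR-221-3p (log2 difference 0.76, adjusted p = 0.043) beside 1.67% of entries called higher, but miR-222-3p did not pass (0.28, adjusted p = 0.26). The limma call of miR-221-3p was lost when any single library was left out, with adjusted p = 0.15 without CKD 1, 0.13 without CKD 2, 0.23 without Sham 1 and 0.18 without Sham 2, and with upper-quartile scaling (limma adjusted p = 0.052). That it passed and miR-222-3p did not is no test of the difference between them, which the ratio below addresses.

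**Figure D2:**
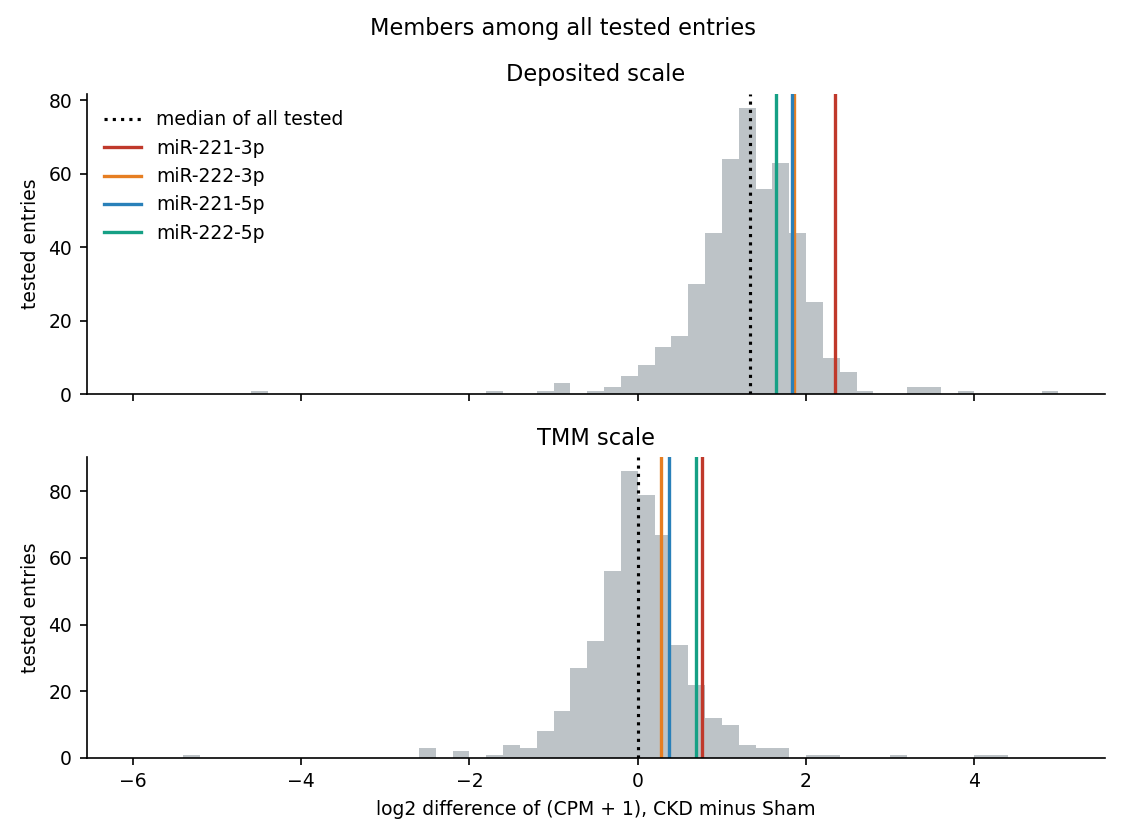
Number of tested entries by log2 difference of (CPM + 1), CKD minus Sham, on the deposited (top) and TMM (bottom) scales, with the 4 arms and the median of all 479 entries as lines. On the TMM scale miR-221-3p stands at 0.76 and miR-222-3p at 0.28, to the right of a median near 0.

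The Sham libraries differed from each other, and the members moved with them. Sham 2 lay above Sham 1 by a median of 0.44 on the log2 scale over the tested entries, by 0.54 for miR-221-3p, 0.65 for miR-222-3p and 0.99 for miR-221-5p. Between CKD 2 and CKD 1 the median difference was -0.14, and miR-221-3p and miR-222-3p differed by 0.03 and -0.07. The Sham gaps of the 3p arms were thus in the direction of the gap of most other entries, and somewhat wider.

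The ratio of the 3p arms within a library does not depend on how libraries are scaled, and it was higher in CKD. miR-221-3p had 4.35 and 4.64 reads per read of miR-222-3p in the CKD libraries, against 3.35 and 3.09 in the Sham libraries. The exact 95% counting intervals, 4.22 to 4.48 and 4.50 to 4.78 in CKD and 3.14 to 3.58 and 2.93 to 3.26 in Sham, did not overlap between groups. The mean log2 ratio was 2.17 ± 0.07 in CKD and 1.69 ± 0.08 in Sham (SD, n = 2 each), a difference of 0.48 or 1.39-fold, and the 4 possible pairings of a CKD with a Sham library gave 0.38 to 0.58. An exact permutation test cannot go below p = 0.333 with 2 against 2 libraries, two-sided, and gave that value (0.476 adjusted over 10 ratios), so the difference exceeds the spread between libraries but could not pass a threshold.

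A difference of this size was within the range of other linked pairs. Among 26 pairs of neighbouring hairpins on 1 strand, with mature forms at most 1000 bases apart and a mean of at least 10 CPM, the absolute gap between the partners' CKD minus Sham differences had a median of 0.38. It ran between 0.01 and 1.20, and the gap of miR-221-3p and miR-222-3p, 0.49 on the log2(CPM + 1) scale, ranked 8 of 26. Each hairpin entered by its most abundant mature form not shared with another hairpin, so some pairs set a main arm against a minor arm. Pairs of this kind ranked above, such as let-7f-1-3p with let-7a-5p (0.82) and miR-27b-3p with miR-24-1-5p (0.74). So did pairs of main arms, such as miR-351-5p with miR-322-5p (1.20) and miR-99b-5p with let-7e-5p (0.54). The rank is therefore not one among main arms only. It concerns the size of the gap, and how many other pairs also separated the CKD from the Sham libraries was not counted.

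The arms of a hairpin are processed as a duplex from which 1 strand is usually kept, and the 3p arm was the kept one in both. miR-221-3p had 50.5 and 43.6 reads per read of miR-221-5p in CKD, against 44.4 and 29.7 in Sham, and these groups overlapped (log2 difference 0.37, exact permutation p = 0.667, two-sided, 0.741 adjusted). miR-222-3p had 76.0 and 61.4 reads per read of miR-222-5p in CKD, against 166 and 89.1 in Sham. The Sham value of 166 rests on 7 reads of the 5p arm, and its exact 95% interval runs from 80.5 to 415. The log2 difference of -0.83 was not tested because a 5p value was under 1 CPM, and it was 0.21 when 1 CPM was added to each arm. Among 44 hairpins with both arms at a mean of at least 10 CPM, the absolute gap between arms had a median of 0.43 on the log2(CPM + 1) scale, and that of miR-221, 0.51, ranked 20.

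**Figure D3:**
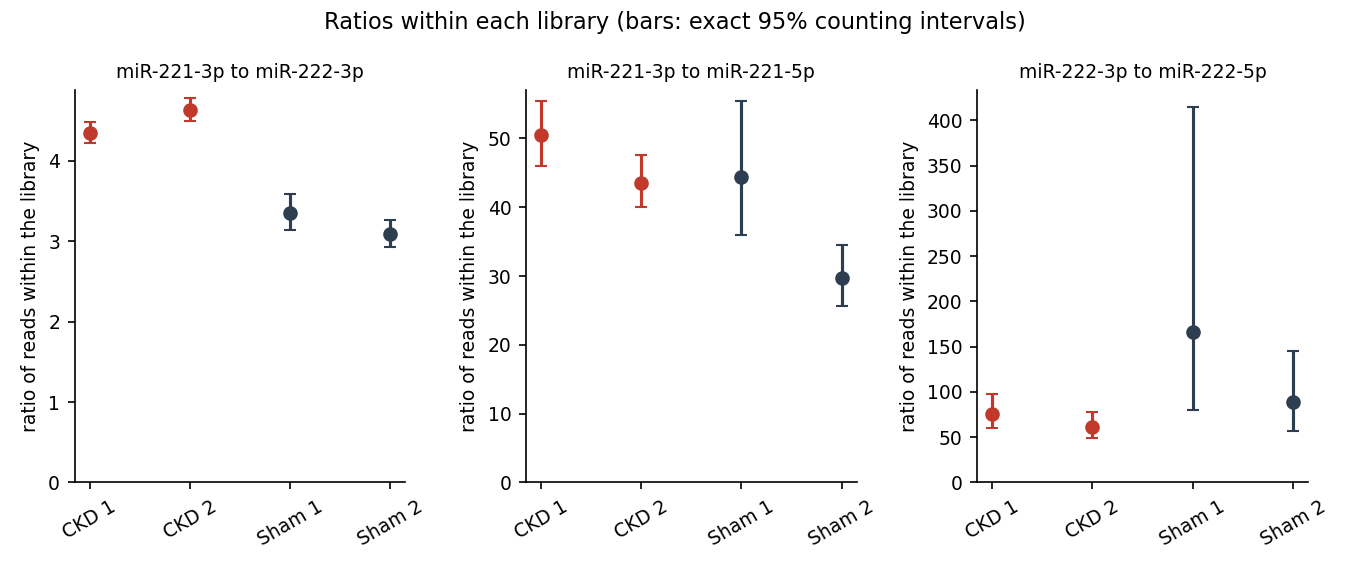
Ratio of reads within each library, with exact 95% counting intervals, for miR-221-3p to miR-222-3p (left), miR-221-3p to miR-221-5p (middle) and miR-222-3p to miR-222-5p (right). The left panel separates CKD, at 4.35 and 4.64, from Sham, at 3.35 and 3.09, and the wide interval at right belongs to the Sham library with 7 reads of miR-222-5p.

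Set against miRNAs of particular cells, again within each library, the members stood higher in CKD relative to miR-145a-5p and miR-143-3p and mixed relative to the others. Of 8 such ratios, 6 did not overlap between groups and gave the smallest p an exact permutation test allows here, 0.333 (two-sided, 0.476 adjusted). For most references many other entries did the same, and the share of the 478 others is given beside each. Relative to miR-145a-5p, which maintains the contractile state of smooth muscle, the log2 ratio was higher in CKD by 1.50 for miR-221-3p (library pairs 1.41 to 1.58) and by 1.02 for miR-222-3p (0.82 to 1.21), and 72.8% of entries were also higher without overlap. Relative to miR-143-3p it was higher by 3.24 (2.88 to 3.60) and 2.76 (2.34 to 3.19), as 95.6% of entries were. Relative to the endothelial miR-126a-3p it was higher by 0.71 for miR-221-3p (0.55 to 0.88), without overlap of the groups, as for 18.8% of entries. For miR-222-3p to miR-126a-3p the difference was 0.23 and the pairs ran between -0.00 and 0.47, so those groups overlapped (exact permutation p = 0.667, two-sided, 0.741 adjusted). Relative to miR-145a-3p, the other arm of the miR-145a hairpin, which was added after the values were seen, the log2 ratio of miR-221-3p was higher by 0.54 (0.38 to 0.70). That of miR-222-3p differed by 0.06 (-0.11 to 0.23) with overlap, so miR-222-3p was not higher relative to both arms.

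miR-21a-5p, a profibrotic miRNA that also promotes smooth muscle growth, kept closest to miR-221-3p of these 4. miR-221-3p had 0.0972 and 0.0763 reads per read of miR-21a-5p in CKD, against 0.0775 and 0.0796 in Sham, and the groups overlapped (log2 difference 0.13, library pairs -0.06 to 0.33, exact permutation p = 1.0, two-sided). Without CKD 1 that difference was -0.04. miR-222-3p had 0.0223 and 0.0165 in CKD, against 0.0231 and 0.0257 in Sham, with a log2 difference of -0.35 (library pairs -0.64 to -0.05), and 63.0% of entries also lay lower relative to miR-21a-5p without overlap. The partners thus lay on opposite sides of 0 relative to miR-21a-5p, with the value of miR-221-3p inside its library spread.

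**Figure D4:**
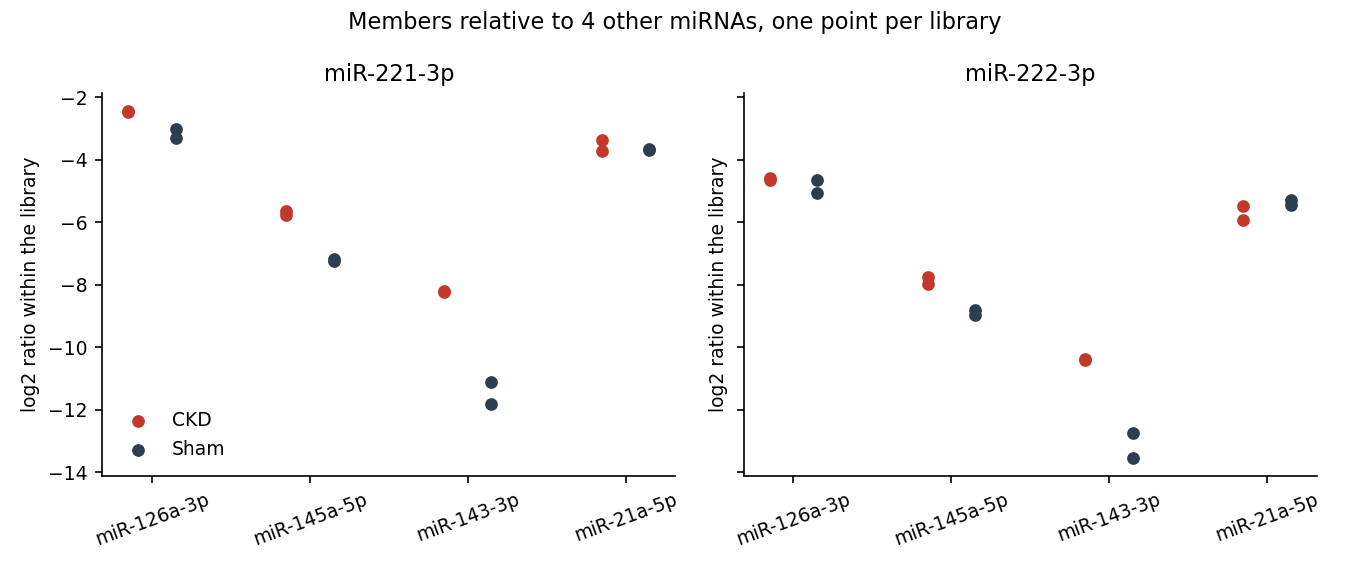
Log2 ratio of miR-221-3p (left) and miR-222-3p (right) to each of 4 other miRNAs, with a point per library. The CKD points lie above the Sham points for miR-145a-5p and miR-143-3p, by 1.50 and 3.24 for miR-221-3p, and overlap them for miR-221-3p to miR-21a-5p and for miR-222-3p to miR-126a-3p.

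The entries whose pattern was most like each member differed between the partners. Likeness was the SD over the 4 libraries of the log2 ratio of (CPM + 1), among 264 other entries with a mean of at least 10 CPM. For miR-221-3p the 5 closest were miR-224-5p (SD 0.04), miR-21a-5p (0.16), miR-223-3p (0.16), miR-106b-3p (0.17) and miR-29a-3p (0.18), beside a median of 0.53. miR-224-5p had 1122 and 1185 CPM in CKD, against 181 and 259 CPM in Sham, and kept almost the same proportion to miR-221-3p throughout. miR-223-3p is known as a myeloid miRNA and miR-29a-3p as a repressor of collagen genes. miR-222-3p ranked 29 (SD 0.29) and miR-221-5p ranked 54 (0.36) in likeness to miR-221-3p.

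For miR-222-3p the closest were miR-30b-5p (SD 0.06), let-7a-1-3p and let-7c-2-3p (0.06 each), miR-103-3p (0.07) and miR-23a-3p (0.08), beside a median of 0.31. let-7a-1-3p and let-7c-2-3p are listed with identical values, so they count as 1 pattern. miR-30b-5p had 3959 and 3776 CPM in CKD, against 924 and 1371 CPM in Sham. In likeness to miR-222-3p, miR-221-3p ranked 117. Entries chosen for a steady ratio to a member necessarily share its difference between groups, so their TMM differences, 0.19 to 0.33 for those close to miR-222-3p and 0.54 to 0.83 for those close to miR-221-3p, restate the choice.

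The pair was set beside other miRNAs described as promoting smooth muscle proliferation. All 12 tested members of that list, both 3p arms included, were called higher on the deposited scale (median 1.72, beside 1.34 for all tested), where 82.9% of all entries were. On the TMM scale 1 was called higher, miR-221-3p itself, beside 1.88% of all entries, none was called lower, and 7 lay above 0 (median 0.14, beside -0.00). The 3 most abundant were miR-26a-5p at -0.09, miR-24-3p at 0.25 and miR-21a-5p at 0.63 (SE 0.19, limma adjusted p = 0.13). miR-92a-3p, known for its abundance in red cells, lay at 1.27 with an SE of 1.03. At the low end stood miR-181b-5p, at -0.34, and these last named were picked after their values were seen.

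miRNAs described as opposing proliferation or maintaining contraction included members called in both directions. Of 15 tested, 11 were called higher and 1 lower on the deposited scale (median 1.39), beside 82.9% of all entries called higher and 1.04% lower. On the TMM scale, where 1.88% of all entries were called higher and 5.85% lower, 1 was called higher, miR-29b-3p, a repressor of collagen genes, at 0.95 (SE 0.14, limma adjusted p = 0.0382). The 2 called lower were miR-143-3p at -2.48 (SE 0.24, limma adjusted p = 0.0119) and miR-145a-5p at -0.73 (SE 0.13, limma adjusted p = 0.0438), although miR-145a-5p was higher by 0.85 as deposited. The list's median was -0.20 with 5 members above 0, and let-7g-5p, the least abundant of its leading 3, lay at -0.20.

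**Figure D5:**
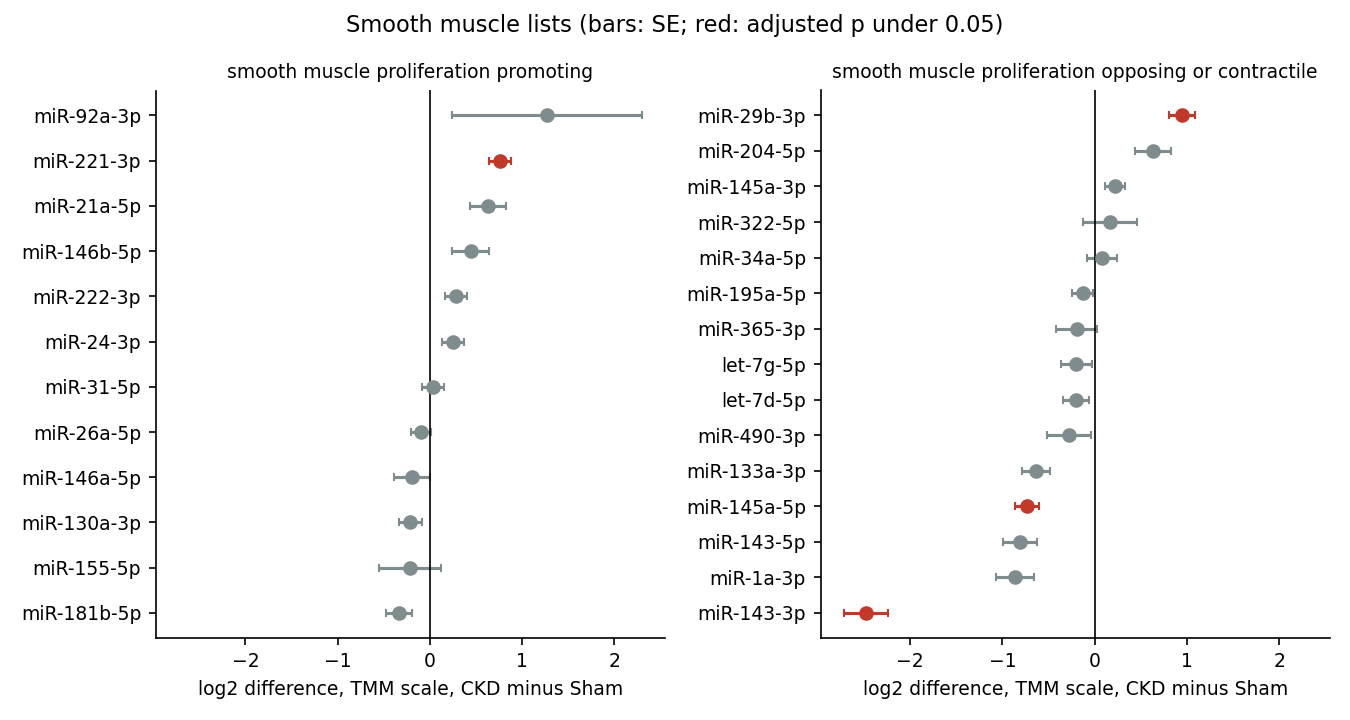
Log2 difference on the TMM scale, CKD minus Sham, with SE bars, of the miRNAs described as promoting (left) and as opposing (right) smooth muscle proliferation. Entries past an adjusted p of 0.05 are red, namely miR-221-3p at 0.76 on the left, and miR-29b-3p at 0.95, miR-145a-5p at -0.73 and miR-143-3p at -2.48 on the right.

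Of the tested markers of other cell types, 2 of 2 endothelial, 3 of 3 red cell, 3 of 4 leukocyte, 2 of 4 striated muscle, 1 of 1 hepatocyte, 5 of 5 epithelial and 3 of 3 neural miRNAs were called higher in CKD on the deposited scale, beside 82.9% of all entries. Their part in the values of miR-221-3p and miR-222-3p was not tested. The 2 endothelial miRNAs, miR-126a-3p and miR-126a-5p, summed to 9989 and 9767 CPM in CKD, against 2899 and 3411 CPM in Sham, and lay at 0.05 and 0.11 on the TMM scale. The 3 red cell miRNAs, miR-451a, miR-144-3p and miR-486a-5p, summed to 1008 and 4754 CPM in CKD, against 213 and 810 CPM in Sham. On the TMM scale these lay at 0.06 (SE 0.77), 0.61 (SE 0.48) and 1.65 (SE 1.06). The 4 leukocyte miRNAs, led by miR-142a-5p, miR-223-3p and miR-150-5p, summed to 409 and 446 CPM in CKD, against 75.9 and 219 CPM in Sham. On the TMM scale these 3 lay at 0.09, 0.78 and -0.09, and the least abundant, miR-142a-3p, at -1.18.

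The remaining lists were small beside miR-221-3p except striated muscle, whose 7 members, led by miR-133a-3p, miR-133b-3p and miR-1a-3p, summed to 1287 and 1026 CPM in CKD, against 533 and 651 CPM in Sham. Of these 7, miR-206-3p and miR-208b-3p had under 3 reads in at least 1 library. The hepatocyte miRNA miR-122-5p had 161 and 56.0 CPM in CKD, against 1.43 and 25.5 CPM in Sham. The 5 epithelial miRNAs, led by miR-200a-3p, miR-200b-3p and miR-200c-3p, summed to 124 and 78.0 CPM in CKD, against 32.0 and 25.4 CPM in Sham. The 3 neural miRNAs, miR-9-5p, miR-9-3p and miR-124-3p, summed to 122 and 161 CPM in CKD, against 34.3 and 39.4 CPM in Sham. Of these, miR-124-3p had 0.23 and 0.36 CPM in Sham and passed the low-value filter only through CKD, at 3.65 and 2.34 CPM. No member of these 7 lists was at 0 in all 4 libraries, and none was called on the TMM scale. There miR-122-5p lay at 2.19 (SE 1.19), miR-9-5p at 0.26, miR-9-3p at 0.76 and miR-124-3p at 0.85. Tested epithelial members had a median of 0.12, with 3 of 5 above 0. Those of striated muscle had a median of -0.46, with 0 of 4 above 0.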

How the data were processed

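RNA between 18 and 30 nucleotides long from pooled aortas was ligated to adaptors and sequenced, per the labels' protocols. Per the submitters' processing notes, Bowtie and GRCm38 were used, with no version or role stated. How reads were counted or shared among similar miRNAs was not stated. The deposited values sum to about 1000000 in each library and were read as CPM. For 3 libraries a single column held all names and then all values (unit other), and these were paired by position. Every non-zero value (100%) came out as a whole number of reads within 0.005 CPM, which gave the totals, so 3 reads were 0.171 to 0.180 CPM.

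limma 3.58.1 (R 4.3.3) was run on log2(CPM + 1), with a mean-variance trend, for entries with a mean of at least 1 CPM and with the group as the only term. TMM factors (edgeR 4.0.16) came from the reads of the tested entries. DESeq2 1.42.0 and edgeR's quasi-likelihood test on those reads, other scalings, filters and pseudocounts, a replicate block and leaving out each library were alternatives. The fits were tested on simulated counts, with as many entries raised as lowered, a setting not designed to hold the shared shift seen here. Both within CKD and within Sham the libraries varied beyond sampling of reads (chi-square over its degrees of freedom, 367 in CKD and 515 in Sham), so none was counted as a duplicate. Named miRNAs were all 4 arms, entries of the same seed, the 5 most alike and the next in level to each 3p arm, and, of each marker list, the 3 most abundant and any called on the TMM scale. The members and lists were chosen with earlier results of these data known.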

Additional observations from a re-analysis of the deposited data

How the results depend on the processing

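miR-221-3p stayed higher in CKD in all alternatives run, from 2.07 to 2.61 as deposited and from 0.67 to 1.02 with TMM or another scaling in its place. The 0.67 came with upper-quartile factors and the 1.02 with library totals without miR-143-3p. It kept its deposited call in all 10 and its TMM call in 9 of 18, other scalings included. The TMM call was lost without a filter (0.76, limma adjusted p = 0.061), without the variance trend (0.76, 0.059), with upper-quartile factors (0.67, 0.052), and with 1 library left out (0.69 to 0.83). The cause was not tested, beyond the fewer samples of the last. Among the same 18 alternatives miR-222-3p passed with DESeq2 alone (0.31, adjusted p = 0.046), and as deposited it ranged from 1.53 to 2.18 with 1 library left out. Replicate numbers, with 2 pairs and a correlation of same-numbered deviations of 0.0999, share only a number. With them as a replicate block miR-221-3p missed the threshold on the TMM scale (0.76, limma adjusted p = 0.063, or 0.76 and 0.059 with edgeR, added after seeing the data).

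As deposited, 402 entries were called, 397 higher and 5 lower, against 241 (237 higher) at a mean of at least 10 CPM, where fewer were tested, and 137 to 384 (134 to 378 higher) with 1 library left out. On the TMM scale 37 were called, 9 higher and 28 lower. DESeq2 called 77 (28 higher), no filter gave 18 (5 higher), the replicate block 10 (4 higher), and edgeR with the block 9 (3 higher). Totals without miR-143-3p gave 14 higher and 14 lower around a median of 0.22, and upper-quartile factors 5 higher. Leaving out 1 library, with the lone one assumed to vary like the other group, gave 0 to 7 calls (0 to 2 higher). limma called 0 without CKD 1 or CKD 2, where 92 and 109 had an unadjusted p under 0.05. The miR-221-3p to miR-222-3p ratio stayed higher in CKD, by 0.42 to 0.54 with 1 library left out. The miR-222 arm ratio turned to 0.21 with 1 CPM added to each arm, and that of miR-221-3p to miR-21a-5p ran from -0.042 (without CKD 1) to 0.31. Depth limits miR-222-5p most, at 7 reads in Sham 1.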
